A study of Mus musculus with 6 samples.

Results

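The genes described here supply and load amino acids. They comprise 40 genes, of which 17 encode enzymes that make amino acids or the folate units tied to them, 9 encode amino acid transporters, and 14 encode aminoacyl-tRNA synthetases of the cytosol. They were chosen by gene symbol, with earlier results of these data known, from the 43346 genes of the count table, and all 40 were found in it. The RNA came from cells of the fetal mouse cortex, taken at gestational day 15.5, grown in primary culture and treated with vehicle (DMSO, spelled DSMO in the sample labels) or with 1 mM 10HDA (10-hydroxy-2-decenoic acid, a fatty acid of royal jelly). There were 3 libraries per treatment, 1 of each treatment from cultures 1, 3 and 4. The labels give the strain as Cyp19-EGFP, a transgenic line in which the aromatase gene's own sequences drive EGFP, and the genotype as SRY+ for all 6 libraries. The methods on culture also name Cyp19-EGFP and male embryos, whereas those on sequencing name C57BL/6 embryos, and the exposure time is not given in the sources used here.

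Library totals ran from 9144736 to 13367194 counts, at which 3 counts correspond to 0.224 to 0.328 CPM (counts per 1000000 counts of the library), a limit that covers counting error only. All levels below are CPM after TMM scaling, which corrects library totals for differences in composition. The totals used for these levels were those of the genes past the expression filter. That filter itself, of 10 CPM, used whole library totals without TMM scaling. In culture 1 4 genes of the Y chromosome (Uty, Kdm5d, Ddx3y and Eif2s3y) summed to 9.07 CPM with vehicle and 9.30 with 10HDA, while the other 4 libraries had 97.8 to 136 CPM, which goes against the label of that culture. Calls are therefore also given without culture 1. Markers of the labelled tissue were present, with all 12 neuronal markers past the expression filter.

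Amino acids that a cell does not import it must build, chiefly from intermediates of glycolysis and the citric acid cycle. Serine is made from a glycolytic intermediate by Phgdh, Psat1 and Psph in that order, and Shmt2 and Mthfd2 then pass its carbon to folate in mitochondria. Aminoacyl-tRNA synthetases join each amino acid to its tRNA before translation. When amino acids run short or proteins misfold, kinases that phosphorylate eIF2 favour translation of the transcription factor ATF4, which is known to bind C/EBP-ATF response elements and to raise transcription of many genes of all 3 groups, with Trib3, Chac1 and Ddit3 among its other known targets. In the brain, serine synthesis is largely a property of glia, which pass serine to neurons.

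The core letters of the C/EBP-ATF response element, TGATGNAA, were looked for on both strands of the RefSeq promoters (GRCm38.p6, from 250 bases before to 50 bases after each gene's start). On the opposite strand the core reads TTNCATCA. Of the 40 genes, 28 had a promoter in the table, and 9 of these (32.1%) held the core, against 4.51% of all 27025 genes with a promoter. The synthetases held it in 5 of 8 genes (Aars, Gars, Iars, Tars and Yars), the synthesis enzymes in 3 of 15 (Asns, Pycr1 and Got1) and the transporters in 1 of 5 (Slc1a4). The promoters of Aldh1l2, Cth, Slc7a3, Slc7a5, Slc38a1, Slc1a5, Cars, Lars, Nars, Rars, Vars and Wars were not in the table. Below are the 150 bases before the RefSeq start of 2 synthesis enzymes and 2 synthetases that hold the core, shown because the genes that held it differed widely in their response. The core is in capitals.
Pycr1, chr11:120643749-120643898, minus strand: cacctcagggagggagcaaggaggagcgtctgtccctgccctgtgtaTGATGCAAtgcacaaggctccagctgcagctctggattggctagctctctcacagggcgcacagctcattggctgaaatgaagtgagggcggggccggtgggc
Asns, chr6:7693210-7693359, minus strand: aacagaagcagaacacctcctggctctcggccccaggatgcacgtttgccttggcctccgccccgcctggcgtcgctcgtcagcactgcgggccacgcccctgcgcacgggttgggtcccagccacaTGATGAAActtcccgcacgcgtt
Aars, chr8:111033692-111033841, plus strand: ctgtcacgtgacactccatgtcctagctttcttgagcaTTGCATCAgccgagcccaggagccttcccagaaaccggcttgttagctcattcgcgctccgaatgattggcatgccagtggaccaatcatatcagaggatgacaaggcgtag
Gars, chr6:55037851-55038000, plus strand: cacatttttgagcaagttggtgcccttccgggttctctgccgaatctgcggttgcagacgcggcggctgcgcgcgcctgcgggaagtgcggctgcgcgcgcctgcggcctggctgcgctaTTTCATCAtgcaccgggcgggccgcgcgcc
The core began 103 bases before the start in Pycr1, 23 in Asns, 112 in Aars and 30 in Gars. Aars also held it as TTTCATCA, beginning at base 10 counted from the RefSeq start and so outside the bases shown. GENCODE places the 5′ end of Asns 45 bases and that of Aars 698 bases further upstream, so that in these 2 genes the match shown lies inside the GENCODE gene. A match of these letters does not show that a factor binds there.

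Of the 40 genes, 37 had at least 10 CPM in at least 3 libraries and were tested. The other 3 fell short of this filter. Slc1a5, a glutamine carrier, had 54 to 111 counts per library, Shmt1, the cytosolic serine hydroxymethyltransferase, had 88 to 118, and Cth, which makes cysteine from cystathionine, had 20 to 31. In edgeR's quasi-likelihood test at an adjusted p under 0.1, 3 of the 37 passed, whereas 0.627% of all 10520 genes tested did (0.2% higher and 0.428% lower with 10HDA). Slc7a3 and Pycr1 rose and Cbs fell. With culture as a block, which pairs the libraries of a culture, 12 of the 37 rose and 1 fell at the same threshold, against 3.91% and 5.08% of all genes tested. The 13 were Psat1, Phgdh, Psph, Shmt2, Mthfd2, Aldh1l2, Pycr1, Bcat1, Cbs, Slc7a3, Slc7a5, Lars and Vars. In 13 of the 37 genes all 10HDA libraries lay above all vehicle libraries, and in 1 below, where 5.96% and 7.44% of all genes tested did so. An unadjusted p under 0.05 was reached by 14 higher and 1 lower gene (4.4% and 5.67% of all genes tested, edgeR), and 22 were higher and 4 lower in 3 of 3 cultures (18.6% and 21%). The log2 fold change, always 10HDA over vehicle, was above 0 in 31 of the 37 and in 47.9% of all genes tested, with medians of 0.22 and -0.0095.

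**Figure D1:**
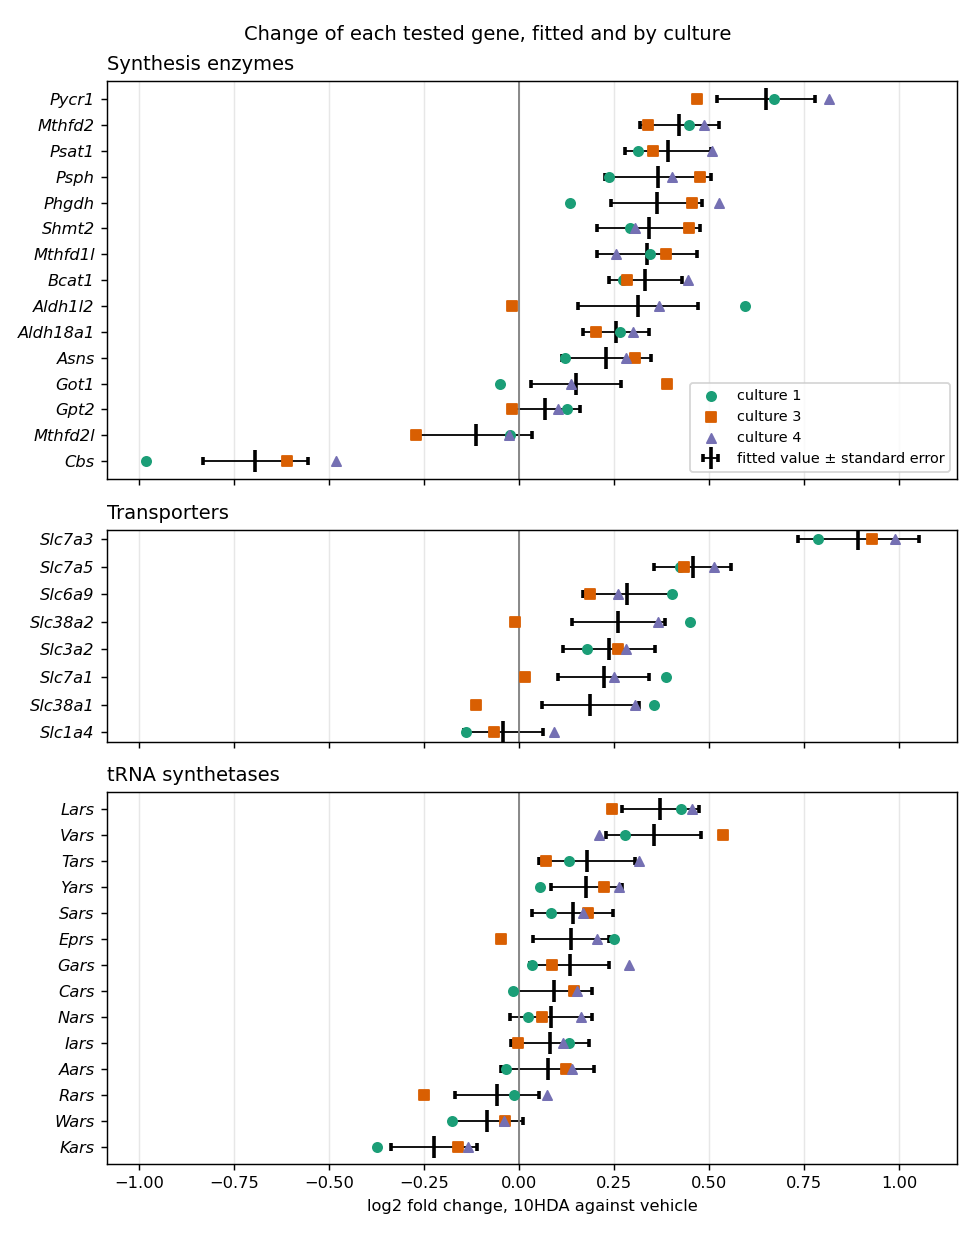
Log2 fold change, 10HDA against vehicle (horizontal axis), of the 37 tested genes (rows) in the 3 groups. Coloured points are the 3 cultures, and black ticks with bars are the fitted value and its standard error. Most synthesis enzymes and transporters lie right of 0 in every culture, the synthetases lie closer to 0, and Cbs lies furthest left.

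Markers of astrocytes and neurons were mostly lower with 10HDA in the same libraries, and those of the oligodendrocyte lineage, radial glia and dividing cells were mixed. The sums of endothelial and pericyte markers and of meningeal markers were also lower, and microglial markers were close to absent. Of all genes tested, 47.9% had a log2 fold change above 0. At an adjusted p under 0.1, 0.428% of all genes tested fell without a block and 5.08% with it (edgeR). Of 14 astrocyte markers 13 were tested, 12 of them had a log2 fold change below 0, and 5 fell at that threshold without a block and 7 with it (edgeR). Their summed level ran from 2108 to 2487 CPM with vehicle and from 1547 to 1924 with 10HDA, with S100b under 1 CPM in every library and none at 0. The summed level of 12 neuronal markers was 8716 to 9452 CPM with vehicle and 7399 to 8384 with 10HDA, with 11 of the 12 below 0. Without a block 0 of the 12 passed (5 at an unadjusted p under 0.05 in edgeR), and with it 5 fell. In DESeq2 1 passed (Snap25), in edgeR's likelihood ratio test 2 (Rbfox3 and Snap25) and in limma-voom 0. Of 10 markers of the oligodendrocyte lineage (361.6 to 452 CPM with vehicle, 278 to 391 with 10HDA, Mag under 1 CPM in every library) 8 were tested, 5 below 0 and 3 above. Among these Cspg4, a gene of the precursor cells, fell (adjusted p = 0.0428 in edgeR), and Pdgfra and Sox10 fell with culture as a block, while Olig1 and Olig2 did not pass. Of 8 radial glia markers (789 to 959 and 729 to 816 CPM) 6 were tested, and with the block Fabp7 fell and Vim rose. Of 7 markers of dividing cells (193 to 248 and 188 to 258 CPM) 4 were tested, 2 above 0 and 2 below, and none passed in either fit (edgeR, 0 at an unadjusted p under 0.05). The sums of 8 endothelial and pericyte markers (17.9 to 19.3 and 8.25 to 11.4 CPM) and of 7 meningeal markers (93.7 to 153 and 33.6 to 74.0 CPM) each rested mainly on 1 gene, Pdgfrb and Pdgfra, the only gene tested of its list. Pdgfrb fell (adjusted p = 0.0428 in edgeR), Pdgfra is also on the oligodendrocyte lineage list, and of the others 5 endothelial and pericyte and 4 meningeal markers were under 1 CPM in every library. All 8 microglial markers were under 1 CPM in every library, with Tmem119 at 0. The part of any cell type in the changes described here was not tested, and in RNA from whole cultures fewer cells of a type and less RNA per cell cannot be told apart.

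The enzymes of serine synthesis were higher with 10HDA in 3 of 3 cultures. Phgdh, which commits the glycolytic intermediate to serine, had 77.7, 63.1 and 57.7 CPM in the vehicle libraries of cultures 1, 3 and 4 and 85.1, 86.5 and 83.1 with 10HDA. Psat1, the transaminase that follows it, had 244, 199 and 215 CPM with vehicle and 303, 254 and 305 with 10HDA. In both genes the groups did not overlap. Psph, the phosphatase of the last step, had 31.3, 24.6 and 23.5 CPM with vehicle and 36.9, 34.2 and 31.1 with 10HDA, so that the vehicle library of culture 1 lay just above the 10HDA library of culture 4. The log2 fold changes were 0.36, 0.39 and 0.37 (standard errors, SE, of 0.12, 0.11 and 0.14). None of the 3 passed without a block (adjusted p = 0.346, 0.274 and 0.419 in edgeR), and all 3 rose with culture as a block (adjusted p = 0.0339, 0.0106 and 0.0498). Phgdh shares 47.8% of its 50-base stretches with other genes, mainly Gm7901, so reads could have been split between them. Gm7901 had 15.6 to 19.9 CPM with vehicle and 15.4 to 20.8 with 10HDA. Psph overlaps Cct6a, which lies on the opposite strand and has 18118 counts in all libraries together against 2098 for Psph.

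Of the mitochondrial folate enzymes that take up the carbon of serine, Mthfd2, Shmt2 and Aldh1l2 rose with culture as a block, and Mthfd1l and Mthfd2l did not pass. Mthfd2, a dehydrogenase and cyclohydrolase, had 62.8, 64.1 and 55.0 CPM with vehicle in cultures 1, 3 and 4 and 85.5, 81.0 and 77.0 with 10HDA. Its groups did not overlap, and its log2 fold change was 0.42 (SE 0.10, adjusted p = 0.169 in edgeR, 0.0105 with culture as a block). Shmt2, which splits serine to glycine, had 89.9, 64.5 and 83.3 CPM with vehicle and 110.1, 88.0 and 102.9 with 10HDA. It was higher in every culture although the groups overlapped, with a log2 fold change of 0.34 (SE 0.14, adjusted p = 0.443 in edgeR, 0.0305 with the block). Mthfd1l, which releases formate, had 20.3, 18.9 and 17.7 CPM with vehicle and 25.8, 24.8 and 21.1 with 10HDA. Its groups did not overlap, and its adjusted p was 0.434 in edgeR and 0.102 with the block. Aldh1l2, which burns formyl-folate to carbon dioxide, was uneven between cultures, with 94.8, 121.9 and 136 CPM with vehicle and 143, 120.2 and 176 with 10HDA. Its log2 change was 0.59 in culture 1, -0.020 in culture 3 and 0.37 in culture 4, and it passed with the block (adjusted p = 0.0788 in edgeR) but not without it (0.529). Mthfd2l, the close relative of Mthfd2, had a log2 fold change of -0.11 (SE 0.15, adjusted p = 0.797 in edgeR).

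Pycr1 and Aldh18a1 belong to proline synthesis. Pycr1 (ENSMUSG00000025140.11, chr11:120635712-120643769 of GRCm38), which makes proline in mitochondria, had 31.0, 29.0 and 24.8 CPM with vehicle in cultures 1, 3 and 4 and 49.4, 40.1 and 43.6 with 10HDA. The lowest 10HDA library thus lay above the highest vehicle library. The means were 28.3 ± 3.18 and 44.4 ± 4.69 CPM (SD, n = 3 each), and the log2 fold change was 0.65 (SE 0.13, adjusted p = 0.0701 in edgeR). Aldh18a1, which makes the precursor of proline and ornithine, had 127, 127 and 124 CPM with vehicle and 153, 146 and 153 with 10HDA. The replicates of Aldh18a1 were close to one another and the groups did not overlap, with a log2 fold change of 0.26 (SE 0.087, adjusted p = 0.36 in edgeR, 0.105 with the block).

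The transaminases and Asns make up most of the rest of the synthesis group. Bcat1, the cytosolic transaminase of branched-chain amino acids, had 204, 185 and 176 CPM with vehicle and 246, 226 and 239 with 10HDA. Its groups did not overlap, and it rose with culture as a block, with a log2 fold change of 0.33 (SE 0.092, adjusted p = 0.0306 in edgeR), but not without it (0.274). Asns, the asparagine synthetase, had 321, 244 and 275 CPM with vehicle and 349, 301 and 334 with 10HDA. It was higher in every culture but overlapped, and it passed neither without the block nor with it (adjusted p = 0.53 and 0.144 in edgeR). Got1 and Gpt2, transaminases of aspartate and alanine, stood at 0.15 and 0.068 on the log2 scale (adjusted p = 0.678 and 0.803 in edgeR).

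Cbs (ENSMUSG00000024039.10, chr17:31608894-31637238), the enzyme that joins homocysteine to serine on the way to cysteine, fell. It had 29.3, 24.0 and 25.1 CPM with vehicle in cultures 1, 3 and 4 and 14.8, 15.7 and 17.9 with 10HDA, so every 10HDA library lay below every vehicle library. The means were 26.1 ± 2.82 and 16.2 ± 1.60 CPM (SD, n = 3 each), and the log2 fold change was -0.69 (SE 0.14, adjusted p = 0.0721 in edgeR). Its change was -0.98 in culture 1, -0.61 in culture 3 and -0.48 in culture 4. Astrocytes are known to express Cbs, and their markers were lower in the same libraries, as given above. Phgdh, Psat1 and Psph, of a pathway placed largely in glia above, were higher in every culture. The part of astrocytes in the fall of Cbs was not tested.

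Of the transporters, Slc7a3 rose most. Slc7a3 (ENSMUSG00000031297.10, chrX:101079210-101086020), a carrier of arginine, lysine and ornithine found mainly in brain, had 91.7, 84.2 and 60.7 CPM with vehicle in cultures 1, 3 and 4 and 158, 160.1 and 120.4 with 10HDA. The groups did not overlap, and culture 4 was the lowest of its treatment both times. The means were 78.8 ± 16.1 and 146 ± 22.3 CPM (SD, n = 3 each), which gave 0.89 on the log2 scale (SE 0.16, adjusted p = 0.0497 in edgeR). By culture its change was 0.79, 0.93 and 0.99. Slc7a1, the widely expressed carrier of the same amino acids, had 207 to 246 CPM with vehicle and 222 to 293 with 10HDA, and its log2 fold change was 0.22 (SE 0.12, adjusted p = 0.545 in edgeR).

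Slc7a5, which exchanges large neutral amino acids such as leucine, had 455, 401 and 400.4 CPM with vehicle and 610.2, 542 and 571 with 10HDA. The groups did not overlap. Its log2 fold change was 0.46 (SE 0.10), and it passed with culture as a block (adjusted p = 0.00278 in edgeR) but not without it (0.129). Slc3a2, the heavy chain that carries Slc7a5 to the cell surface, had 322, 248 and 270 CPM with vehicle and 364, 297 and 328 with 10HDA. It was higher in 3 of 3 cultures while the groups overlapped, with a log2 fold change of 0.24 (SE 0.12, adjusted p = 0.53 in edgeR, 0.129 with the block).

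Slc6a9, a glycine transporter of glia and of some neurons, had 36.3, 35.0 and 39.8 CPM with vehicle and 47.9, 39.9 and 47.7 with 10HDA. The lowest 10HDA library stood barely above the highest vehicle library, and the log2 fold change was 0.28 (SE 0.12, adjusted p = 0.45 in edgeR, 0.118 with the block). The gene overlaps B4galt2, which has more counts and lies on the opposite strand, and the strand setting of the counting is not given in the sources used here. The glutamine and alanine carriers Slc38a1 and Slc38a2 were higher in cultures 1 and 4 but not in culture 3, with log2 changes of -0.11 and -0.012 there, and neither passed (adjusted p = 0.633 and 0.504 in edgeR). Slc1a4, which exchanges alanine, serine and cysteine, was the lowest of the 8 tested transporters. It had 428, 368 and 356 CPM with vehicle and 389, 352 and 379 with 10HDA, with groups that overlapped and a log2 fold change of -0.042 (SE 0.10, adjusted p = 0.905 in edgeR) whose sign changed with library size alone as the scaling (0.031).

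**Figure D2:**
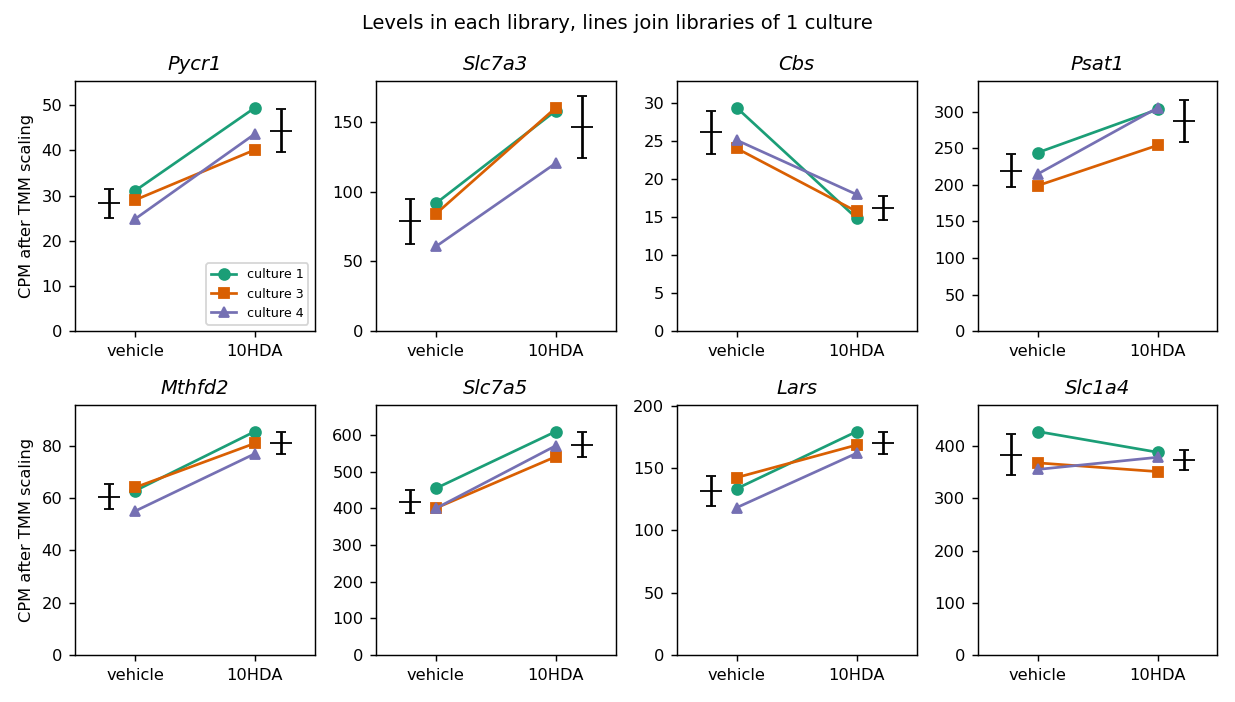
CPM after TMM scaling (vertical axis, from 0) of 8 genes in each library, with lines joining the vehicle and the 10HDA library of a culture. Black marks beside the points are the mean and SD of 3 libraries. Pycr1, Slc7a3, Psat1, Mthfd2, Slc7a5 and Lars are higher and Cbs is lower with 10HDA in every culture, whereas the lines of Slc1a4 cross.

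The tRNA synthetases changed less. None of the 14 passed without a block, where 2 had an unadjusted p under 0.05 (edgeR), 1 passed in DESeq2 and in edgeR's likelihood ratio test (Lars) and 0 in limma-voom, and 2 rose with culture as a block. Among all genes tested 3.91% rose with the block. Lars, the leucyl-tRNA synthetase, had 133, 142 and 118 CPM with vehicle in cultures 1, 3 and 4 and 179, 168 and 162 with 10HDA. Its groups did not overlap, with a log2 fold change of 0.37 (SE 0.10, adjusted p = 0.239 in edgeR, 0.0154 with the block). Vars, the valyl-tRNA synthetase, had 116, 113 and 101 CPM with vehicle and 141, 164 and 117 with 10HDA. The groups did not overlap, although the 10HDA library of culture 4 lay close to the vehicle library of culture 1, and the log2 fold change was 0.35 (SE 0.13, adjusted p = 0.384 in edgeR, 0.0324 with the block). Kars, the lysyl-tRNA synthetase, which also serves mitochondria, was the lowest of the group, with 121, 100.1 and 119 CPM with vehicle and 93.4, 89.5 and 109 with 10HDA. It was lower in 3 of 3 cultures but its groups overlapped, and its log2 fold change was -0.23 (SE 0.11, adjusted p = 0.529 in edgeR, 0.181 with the block).

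The remaining 11 synthetases had log2 fold changes from -0.084 in Wars to 0.18 in Tars, none of them past the threshold in either fit. Aars, Gars and Iars, which held the response element core, had log2 fold changes of 0.074, 0.13 and 0.081 (SEs 0.12, 0.10 and 0.10), as against 0.65 in Pycr1. Tars and Yars, which held it too, had 0.18 each. Among the genes with the core, Pycr1 was the 1 that passed in either fit, while Asns had 0.23 and Slc1a4 -0.042.

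Set side by side, the 3 groups differed in their medians. The median log2 fold change was 0.33 over 15 synthesis enzymes, 0.25 over 8 transporters and 0.11 over 14 synthetases. For synthesis enzymes it was 0.26, 0.34 and 0.30 in cultures 1, 3 and 4, and for synthetases 0.043, 0.077 and 0.16, so that synthesis enzymes were higher by 0.22, 0.26 and 0.14 in the 3 cultures. Transporters varied more between cultures, at 0.39, 0.10 and 0.29, and in culture 3 stood above the synthetases by 0.024. Of the synthesis enzymes 9 of 15 passed with culture as a block, of the transporters 2 of 8 and of the synthetases 2 of 14, where 8.98% of all genes tested did. These are descriptions of the lists, and the difference between the groups was not tested.

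**Figure D3:**
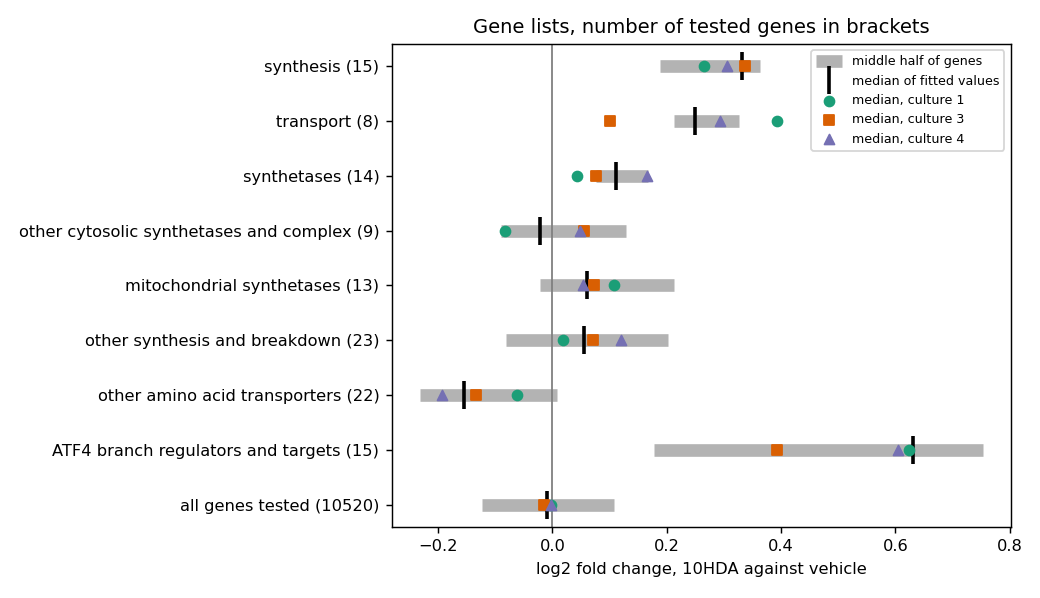
Log2 fold change, 10HDA against vehicle (horizontal axis), for 8 gene lists and all genes tested (rows). Ticks are medians of the fitted values, grey bars run from the lower to the upper quartile, and coloured points are the medians within each culture. Synthesis enzymes stand above the synthetases in every culture, the medians of other amino acid transporters stand below 0, and the list of ATF4 regulators and targets stands furthest right.

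Genes of the same processes outside the 40 did not follow as a whole. Of 30 other enzymes of amino acid and folate metabolism 23 were tested, and their median was 0.056, with 0 past the threshold without a block (5 at an unadjusted p under 0.05 in edgeR, and 0 past it in DESeq2, limma-voom or edgeR's likelihood ratio test). With the block 2 rose and 1 fell, against 3.91% and 5.08% of all genes tested. The gene that fell was Glul, the glutamine synthetase of astrocytes, with -0.28 on the log2 scale and the block's adjusted p at 0.0761 (edgeR). Of 28 other amino acid transporters 22 were tested, with a median of -0.15 and 16 below 0. None passed without the block (3 at an unadjusted p under 0.05 in edgeR, 0 past it in DESeq2 or limma-voom and 1, Slc7a11, in edgeR's likelihood ratio test), and with it Slc7a11 and Slc7a2 fell. The block thus called 2 of these 22 genes, close to the share of 8.98% among all genes tested. Slc7a11, the cystine and glutamate exchanger, which shares the heavy chain Slc3a2 with Slc7a5, had 310, 182 and 336 CPM with vehicle in cultures 1, 3 and 4 and 153, 115 and 211 with 10HDA. Culture 3 was low in both treatments, so the groups overlapped, while the change within cultures was -1.02, -0.67 and -0.67 on the log2 scale, and its adjusted p was 0.296 in edgeR and 8.58e-06 with the block. Slc7a2, another carrier of arginine and lysine, had a log2 fold change of -0.44 (adjusted p = 0.344 in edgeR, 0.036 with the block).

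The other synthetases moved little. Of 9 further cytosolic synthetase subunits and partners of their complex, all tested, 0 passed in either fit, with a median of -0.022 and the smallest p in Mars, the methionyl-tRNA synthetase (log2 fold change 0.21, unadjusted p = 0.0463 in edgeR). Of 17 mitochondrial synthetases 13 were tested and 0 passed in either fit, with a median of 0.061. Each of these lists had 1 gene at an unadjusted p under 0.05 and 0 past the threshold in DESeq2, limma-voom or edgeR's likelihood ratio test.

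The listed regulators and known targets of the ATF4 branch were more clearly higher. The list of 19 was written with earlier results of these data known and is no independent evidence of its direction. It does not hold every known target, and Slc7a11, which fell with the block as given above, stands outside it. Of its 15 tested genes, 7 rose without a block and 9 with it, against 0.2% and 3.91% of all genes tested. The median of the 15 was 0.63. Trib3, a pseudokinase, Chac1, which breaks down glutathione, and Sesn2, a sensor of leucine, had log2 fold changes of 1.5, 0.90 and 0.80, at an adjusted p of 0.0149, 0.0272 and 0.0428 (edgeR). Ddit3, a factor induced by stress of the endoplasmic reticulum, rose by 0.67 on the log2 scale (adjusted p = 0.0497 in edgeR). Stc2, Eif4ebp1 and Atf5 also rose without the block, and Ddit4 and Ppp1r15a with it. Atf4 itself had a log2 fold change of 0.13 (SE 0.12, adjusted p = 0.711 in edgeR), and its own regulation is known to lie mainly in translation, which RNA counts do not measure. Whether ATF4 acted on any of these genes was not tested. The eIF2 kinase genes Eif2ak1, Eif2ak3 and Eif2ak4 had -0.12, -0.031 and 0.021 and did not pass. Eif2ak2, another of these kinases, was below the filter, with 37, 51 and 70 counts with vehicle in cultures 1, 3 and 4 and 68, 80 and 70 with 10HDA, and was not tested. Its log2 change was 0.82, 0.58 and 0.40 in the 3 cultures.

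Per kilobase of gene length, the scale on which levels of different genes can be compared, Gars was the most abundant of the 40 with vehicle, at 146 ± 13.3 CPM per kilobase (SD, n = 3). Nars, Slc7a5 and Asns followed at 121 ± 9.47, 113 ± 8.47 and 102 ± 14.1, and from Nars on each of these lay within the summed SDs of the next. The synthetases ran from 13.7 to 146 CPM per kilobase, the transporters from 1.32 to 113 and the synthesis enzymes from 0.988 to 102. This order depends on the deposited gene length, which was 9282 bases for Aars and 18102 for Eprs. Aars had the highest CPM of the 40 with vehicle (477) but 51.4 CPM per kilobase. The genes that moved most were at moderate or low levels, with Slc7a3 at 20.8, Cbs at 7.81 and Pycr1 at 7.19 CPM per kilobase.

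**Figure D4:**
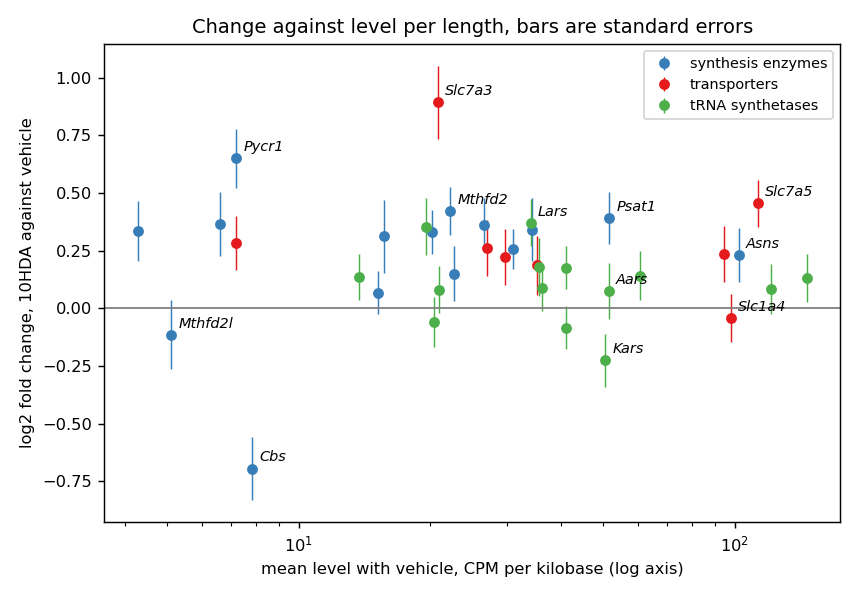
Log2 fold change, 10HDA against vehicle (vertical axis), against the mean level with vehicle in CPM per kilobase (horizontal log axis) of the 37 tested genes, coloured by group. Bars are standard errors of the fold change. Slc7a3, Pycr1 and Cbs stand furthest from 0, and Slc7a5 is the gene at a high level with the largest change.

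The 3 calls made without a block depended on single libraries. They were past the threshold under each other scaling of the counts, except Cbs with library size alone (adjusted p = 0.146 in edgeR). Without both libraries of culture 1, the log2 fold changes of Slc7a3, Pycr1 and Cbs were 0.97, 0.65 and -0.53, and none passed (adjusted p = 0.16, 0.412 and 0.642 in edgeR). Nor did any of the 3 pass without the vehicle library of culture 3 or 4 or the 10HDA library of culture 1 or 3, or without culture 3, with adjusted p from 0.153 to 0.429 for Slc7a3, 0.123 to 0.504 for Pycr1 and 0.168 to 0.504 for Cbs (edgeR). Omitting the vehicle library from culture 1 put Cbs above the threshold of 0.1 (0.131), and omitting culture 4 did so for Pycr1 (0.174) and Cbs (0.103), whereas Slc7a3 passed in both cases. With culture as a block and culture 1 left out, a setting chosen after seeing the data, 14 of the 37 passed, as did 8.49% of all genes tested in that setting, among them Slc7a3, Pycr1 and Cbs (adjusted p = 2.42e-13, 0.000221 and 0.0173 in edgeR). These were the 13 above without Aldh1l2, and with Asns and Slc3a2 in addition. That fit held the libraries of cultures 3 and 4 only, so its p-values lean largely on variance estimated across genes.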

How the data were processed

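RNA of 6 libraries, 3 per treatment, was sequenced as 50-base single-end reads. Per the methods of the paper and the submitters' processing notes, the authors mapped the reads without trimming by Subjunc (Subread 1.4.4, mm10) and summarised them over Gencode models by featureCounts. The deposited values are raw counts, neither normalized nor filtered, beside a gene length, and further sample columns numbered 0. Columns were assigned to samples by the library number in the sample titles.

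Symbols and coordinates came from GENCODE M21 (GRCm38), which matched 98% of identifiers, and promoters from RefSeq (GRCm38.p6). The filter, 10 CPM or more in 3 or more libraries, the TMM scaling and the threshold of 0.1 follow the methods of the paper. The quasi-likelihood test of edgeR 4.0.16 (R 4.3.3) was run on the 10520 genes that passed, adjusted over all of them after Benjamini and Hochberg. Standard errors were derived from the fold change and its F statistic. Levels are mean ± SD over 3 libraries. No permutation test is given, since the smallest exact p for 3 against 3 is 0.1. The labels do not say whether a culture pooled embryos, so p-values refer to the spread between these libraries. The edgeR fits estimate that spread partly across genes, so a p-value does not measure a gene's own spread alone. With the block the SE was 0.10 for Aldh1l2, which was uneven between cultures, and 0.092 for Slc7a5, which was more even.

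The numbers pair the libraries because the labels place 1 library of each treatment in a culture. Deviations from the treatment means correlated across genes at 0.37, 0.24 and 0.62 within cultures 1, 3 and 4, against -0.45 to 0.18 between cultures. Such deviations cancel over the libraries of a treatment, so positive values within cultures push those between cultures down. The contrast is therefore partly built in. The members, gene lists and motif were chosen with earlier results of these data known. Values in every library are given for 18 genes, namely those with an unadjusted p under 0.05, those past the threshold with culture as a block, and the highest and lowest of each group. From each further list the genes past the threshold in either fit, or else the one with the smallest p, are named, and of the ATF4 list also Atf4, Ddit3, Trib3 and Chac1. Some genes that this rule selects are not reported here. Library values of Asns, Slc3a2 and Slc7a11, ranges for Slc7a1 and values of the eIF2 kinases and of single cell type markers were added after they had been seen. Promoters shown were chosen after the matches were known.

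Alternatives were DESeq2 size factors, upper quartile scaling, raw library size, the test in DESeq2 1.42.0, limma-voom (limma 3.58.1) and edgeR's likelihood ratio, other filters, a threshold of 0.05, a culture block, and each library or culture left out. The scripts were tested on simulated data. Reads shared with other genes were gauged from 50-base stretches of GENCODE transcripts.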

Additional observations from a re-analysis of the deposited data

How the results depend on the processing

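Against 3 of the 37 tested genes past an adjusted p of 0.1 without a block (0.627% of all genes), the count was 13 with culture as a replicate block (8.98%), 14 with the block and without culture 1 (8.49%), 8 with the test of DESeq2 (1.62%), 7 with edgeR's likelihood ratio test (2.07%), 8 of 40 without a filter on low counts (2.37%) and 1 at a threshold of 0.05. Leaving out 1 library or 1 culture gave 0 to 6 (edgeR). It was 0 without the vehicle library of culture 3 or 4, the 10HDA library of culture 1 or 3, or both libraries of culture 1 or 3 (10 to 16 of the 37 at an unadjusted p under 0.05), and 6 without the vehicle library of culture 1 or the 10HDA library of culture 4. Of all genes, 66 passed without a block and 945 with it, 0 without the 10HDA library of culture 1 (453 at an unadjusted p under 0.05, edgeR) and 355 when the 10HDA library of culture 4 was omitted. The block changed no call of the 3 genes. The cause of these shifts was not tested.

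The median log2 fold change of synthesis enzymes was 0.41 with library size alone and ran from 0.28 to 0.41 with libraries or cultures left out, and that of synthetases was 0.18 with library size alone and 0.064 to 0.17 with libraries or cultures left out. Transporters ran from 0.20 to 0.33. Library size alone raised the median of all genes from -0.0095 to 0.067. Of the 18 genes given in full, Slc1a4 alone changed sign, to 0.031 with library size alone and 0.031 with the block and without culture 1, and from -0.10 to 0.066 with libraries or cultures left out, always far from the threshold (adjusted p from 0.725 to 1). Cth, Shmt1 and Slc1a5, which the filter of 10 CPM left out, could be tested with a filter of 1 CPM, where their log2 fold changes were -0.23, 0.23 and 0.43 (SE 0.28, 0.17 and 0.20) and none passed (adjusted p = 0.789, 0.639 and 0.48 in edgeR).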
